A study of Mus musculus with 12 samples.

Results

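Ccl5 (ENSMUSG00000035042), also called RANTES, encodes a secreted chemokine of the CC family. It was followed through all 12 libraries of an RNA sequencing experiment on mouse airway macrophages (AMs), as 1 of the 20551 genes in the deposited count table. The gene was chosen by its own CPM values in these groups and pools, since its level after lipopolysaccharide (LPS) was known to be far higher in Scnn1b-Tg than in wild-type (WT) AMs. Levels are given as CPM, counts per M counts of a library. Its levels and fold changes are therefore given as a description with errors and no p-value, and tests are given only for other genes.

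CC chemokines draw leukocytes along a concentration gradient by binding G protein-coupled receptors on the surface of the responding cell. Its receptors, Ccr1 and Ccr3 among them, are found on T cells, monocytes, eosinophils and other leukocytes, and it is held on cell surfaces by the sugar chains of proteoglycans. Macrophages are known to switch Ccl5 on when Tlr4 senses LPS, through NF-kB and through interferon regulatory factors of the Ticam1 (TRIF) arm, and secreted interferon can raise it further.

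Scnn1b-Tg mice carry a subunit of the epithelial sodium channel under the promoter of the club cell secretory protein, so that the transgene acts in airway epithelium and the lungs become obstructed by mucus. AMs came from Scnn1b-Tg mice and WT littermates on the C57BL/6 strain, at 6 weeks of age per the study's methods, and each pool held the cells of 3 to 4 animals. Each of 6 pools (WT 16, 17 and 18, and Tg 17, 18 and 19) was split into cells kept in medium and cells given 100 ng/ml LPS of Pseudomonas aeruginosa for 12 h. This gave 4 groups of 3 libraries: WT medium, Scnn1b-Tg medium, WT LPS and Scnn1b-Tg LPS. A pool is the replicate throughout, and the same pool number in WT and Tg does not mark shared animals. WT 16, WT 17 and Tg 17 formed batch 1 and WT 18, Tg 18 and Tg 19 formed batch 2, the batch being the date of library preparation. The labels describe AMs as lavage cells that adhered to plastic, whereas the methods describe cells sorted from digested lungs.

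Total counts per library were 48.2 to 60.9 M and between 14918 and 16165 genes were detected. The transgene cannot check the genotype labels in these cells, since Scnn1b stayed below 0.76 CPM in every library. All 10 listed AM markers (Siglecf, Itgax, Marco, Car4, Pparg, Mertk, Mrc1, Fabp4, Ear2 and Chil3) were above the detection floor of 8 counts in all 4 groups. In medium their summed level was 11813 to 12678 CPM in WT and 14020 to 17381 CPM in Scnn1b-Tg AMs. With LPS it was 8560 to 10644 and 10253 to 15376 CPM. Chil3 made up most of these sums, with a mean of 9971 CPM in WT medium. With LPS 6 of the 10 markers fell and 2 rose in WT AMs, where 31.8% of all genes tested were called. In Scnn1b-Tg AMs 7 fell and 2 rose, where 38.1% of all genes were called. Siglecf fell by 3.38 on the log2 scale in WT and fell by 4.19 in Scnn1b-Tg AMs (edgeR adjusted p = 2.09e-07 and 3.84e-08), whereas Marco rose by 0.99 and 1.62 (edgeR adjusted p = 0.0150 and 0.000641) and Car4 rose as well (edgeR adjusted p = 0.00146 and 0.00256). Because whole pools were sequenced, more RNA per cell and more cells carrying that RNA cannot be told apart.

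Ccl5 lies on the minus strand of chromosome 11 (mm10, chr11:83525778-83530518, span 4741 bases). Its annotated messenger RNA of 532 bases has 3 exons of 133, 112 and 287 bases, with a 5′ UTR of 57 bases, a coding sequence of 276 bases and a 3′ UTR of 199 bases. No exon of another annotated gene overlaps it. Of its 502 stretches of 31 bases, 0 occurred in a transcript of another gene among 141767 annotated transcripts, so its reads can be told from those of the neighbouring chemokines. The coding sequence is shown as the part of this messenger RNA that encodes the protein, while counted reads can also come from the UTRs. The capitals mark the adjacent pair of cysteine codons that gives CC chemokines their name, here beginning at codon 33, in exon 2.

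Ccl5 coding sequence: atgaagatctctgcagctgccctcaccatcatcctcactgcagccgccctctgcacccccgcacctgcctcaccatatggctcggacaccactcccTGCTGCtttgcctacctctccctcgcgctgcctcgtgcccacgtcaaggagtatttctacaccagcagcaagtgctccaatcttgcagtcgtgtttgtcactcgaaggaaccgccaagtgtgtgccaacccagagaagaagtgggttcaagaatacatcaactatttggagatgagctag

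Ccl4, Ccl6 and Ccl9, other CC chemokines of the same cluster, are shown by 30 bases around the same codons, to set Ccl5 beside the genes it is later compared with. Capitals again mark the cysteine pair, and the sequences are 5′ to 3′ on the coding strand.
Ccl5 (chr11:83529230-83529259, minus): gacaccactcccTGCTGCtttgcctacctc
Ccl4 (chr11:83663470-83663499, plus): cctcccacttccTGCTGTttctcttacacc
Ccl6 (chr11:83589374-83589403, minus): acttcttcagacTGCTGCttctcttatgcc
Ccl9 (chr11:83575914-83575943, minus): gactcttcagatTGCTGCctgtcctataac

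The flanking letters differ between all 4 genes, and Ccl4 uses another cysteine codon in the pair. The genes also differ in length: the longest coding transcript has 532 bases for Ccl5, 766 for Ccl3, 660 for Ccl4, 1440 for Ccl6 and 3006 for Ccl9. Levels are therefore compared between genes only per length, as TPM (counts divided by transcript length, scaled to the same total in each library), and within a gene as CPM.

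In unstimulated WT AMs, Ccl5 was near the lower end of what these libraries can measure. It had 66 counts in WT 16, 53 in WT 17 and 80 in WT 18, or 1.18, 1.08 and 1.61 CPM. At about 5 counts to a sequenced read pair these are 13, 11 and 16 read pairs. The mean of 1.29 ± 0.280 CPM (SD, n = 3) corresponds to 4.66 ± 1.06 TPM, and Ccl5 stood between rank 7968 and rank 8787 among all genes by TPM.

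In unstimulated Scnn1b-Tg AMs, Ccl5 had 104 counts in Tg 17, 164 in Tg 18 and 110 in Tg 19. The corresponding levels were 1.78, 3.12 and 2.05 CPM, with a mean of 2.32 ± 0.707 CPM (SD, n = 3) or 8.33 ± 2.02 TPM. Each Scnn1b-Tg pool was above each WT pool, but the lowest of the former and the highest of the latter were close. Their 95% Poisson intervals, which cover counting error only, overlapped widely at 1.11 to 2.75 CPM for Tg 17 and 0.919 to 2.61 CPM for WT 18.

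With LPS, WT AMs reached 1692 counts in WT 16, 2211 in WT 17 and 2280 in WT 18, which are 33.8, 38.4 and 43.1 CPM (mean 38.4 ± 4.64, SD, n = 3). Per length this was 133 ± 18.3 TPM, and the rank of Ccl5 among all genes moved up to between 886 and 1189. Scnn1b-Tg AMs with LPS held 8170 counts in Tg 17, 10718 in Tg 18 and 9537 in Tg 19, which are 144, 204 and 181 CPM (mean 176 ± 30.3, SD, n = 3). At 600 ± 77.5 TPM Ccl5 then ranked between 158 and 212, among the most abundant transcripts of the cells.

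The 4 groups did not overlap at any point of this order, from WT medium through Scnn1b-Tg medium and WT LPS to Scnn1b-Tg LPS. The gap between the highest WT LPS library (43.1 CPM) and the lowest Scnn1b-Tg LPS library (144 CPM) was wide, whereas the gap between the genotypes in medium (1.61 and 1.78 CPM) was smaller than the counting error. Over all genes tested, all Scnn1b-Tg libraries lay above all WT libraries in 5.72% with LPS and 9.02% in medium, and all LPS libraries above all medium libraries in 18.7% in WT and 22.3% in Scnn1b-Tg AMs. The pooled within-group SD of Ccl5 was 0.30 on the log2 CPM scale (8 degrees of freedom).

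**Figure D1:**
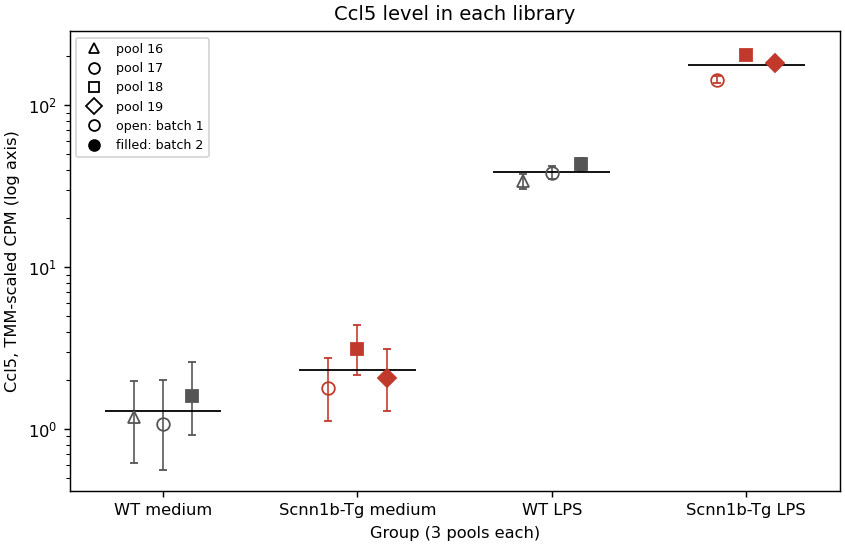
Ccl5 level in each of the 12 libraries, as TMM-scaled CPM on a log axis against group. Symbols give the pool number, open and filled symbols batches 1 and 2, bars the 95% counting interval of each library, and lines the group means of 1.29, 2.32, 38.4 and 176 CPM. The LPS groups are clear of each other, while the counting intervals of the medium groups overlap.

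Since each pool gave both a medium and an LPS library, the LPS response of Ccl5 can be read pool by pool. Ccl5 was 28.6-fold, 35.5-fold and 26.8-fold higher with LPS in WT 16, 17 and 18, a mean of 30.3 ± 4.61 (SD, n = 3). In Tg 17, 18 and 19 it was 80.8-fold, 65.4-fold and 88.1-fold higher, a mean of 78.1 ± 11.6. The smallest fold in a Scnn1b-Tg pool was thus above the largest in a WT pool, although Tg 18, the pool with the highest LPS level, had the smallest fold of its genotype and also the highest medium level. In absolute terms LPS added 32.6, 37.3 and 41.4 CPM in the WT pools and 142, 201 and 179 CPM in the Scnn1b-Tg pools. The mean addition was 4.69 times as large in Scnn1b-Tg AMs, and the mean fold 2.58 times as large.

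From the model fitted to all 13729 genes that passed the filter, Ccl5 differed between Scnn1b-Tg and WT AMs after LPS by a log2 fold change of 2.06 (SE 0.13), a fold of 4.16. The SE of Ccl5 here and below do not allow for the choice of the gene by these values. The difference after LPS was the 96th highest value of all genes tested. In medium the log2 fold change was 0.71 (SE 0.17), a fold of 1.63, and rank 724. The difference in medium was 34.4% of that in LPS on the log2 scale. LPS against medium gave 4.90 (SE 0.16) in WT AMs and 6.25 (SE 0.15) in Scnn1b-Tg AMs, and the difference between these responses, the interaction, was 1.35 (SE 0.21), rank 262 of 13729.

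The genotype difference was of like size in both batches. On means of log2(CPM + 0.5), Scnn1b-Tg minus WT after LPS was 1.98 in batch 1 and 2.14 in batch 2, and in medium 0.48 and 0.53. Batch 1 held a single Scnn1b-Tg pool and batch 2 a single WT pool, so neither value has a spread of its own. In medium the fitted difference rested more on one library, being 0.52 without Tg medium 18 and 0.83 without Tg medium 19. After LPS it stayed between 1.96 and 2.12 whichever library was left out.

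To see how far Ccl5 stood from other LPS-responsive genes, a set of 684 genes was ranked. Each had a fitted log2 rise with LPS past 1 and an edgeR adjusted p under 0.05 in both genotypes. The median genotype difference of the set was 0.15 after LPS and -0.08 in medium, and 35 of the 684 were past 1 after LPS. Ccl5 ranked 5 by its difference after LPS, 102 in medium and 41 in the interaction. These ranks describe the values by which the gene was chosen, and those in medium and in the interaction rest on the few read pairs of the medium libraries.

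The pathway around Ccl5 was examined through lists of its receptors, the sensors and relays between LPS and its promoter, the transcription factors known to act there, interferon-induced genes, and other chemokines. These lists held 69 genes, of which 58 were tested. After LPS, 0 of the 58 were called between the genotypes by edgeR at an adjusted p of 0.05, against 0.051% of all genes tested. At an unadjusted p under 0.05 there were 8 of 58, or 13.8%, against 7.12% of all genes, and DESeq2 called 2 (Sdc4 and Irf1). The share of all genes called by DESeq2 is not given, here or below, so its counts cannot be set against a background. Of the 58 log2 fold changes 42 were positive, with a median of 0.10 against 0.00448 over all genes. None of the 58 fitted values reached the 2.06 of Ccl5.

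**Figure D2:**
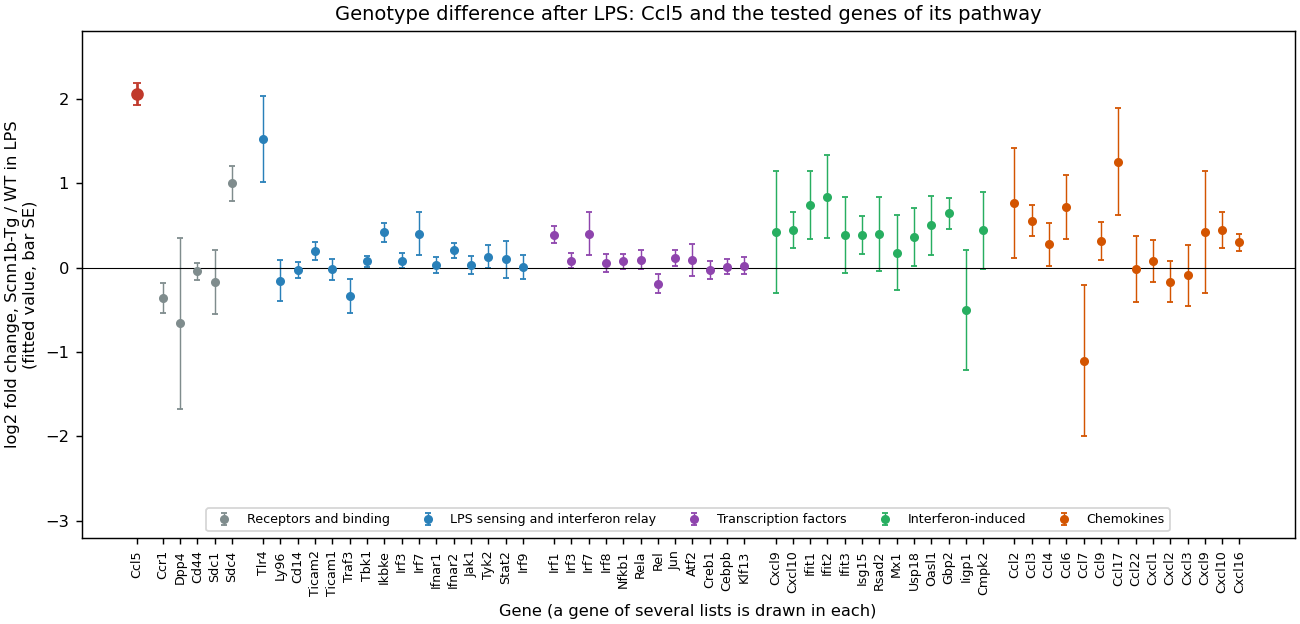
Fitted log2 fold change of Scnn1b-Tg over WT AMs after LPS for Ccl5 and 56 of the 58 tested genes of the lists, coloured by list, with bars of 1 SE. Ccl5 stands at 2.06, and the next points are Tlr4 at 1.52, Ccl17 at 1.26 and Sdc4 at 1.00, each with a wider bar than Ccl5.

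In medium 1 of the 58 genes was called, which is 1.72% against 0.335% of all genes. It was Cd14, the co-receptor that hands LPS to the Tlr4 complex, and it was lower in Scnn1b-Tg AMs, at 34.8 ± 2.62 against 57.4 ± 9.23 CPM (log2 fold change -0.79, SE 0.09, edgeR adjusted p = 0.00975). Its direction was thus opposite to that of Ccl5, and the call was lost in 4 of 20 alternative fits. DESeq2 called 8 of the 58 in medium, again with no share of all genes to set beside it. With edgeR 14 of the 58, or 24.1% against 13.4% of all genes, had an unadjusted p under 0.05. With LPS, 39 rose and 4 fell in WT AMs, or 74.1% against 31.8% of all genes, and 38 rose and 4 fell in Scnn1b-Tg AMs, or 72.4% against 38.1%. In the interaction 0 genes were called among the 58 and 0% of all genes by edgeR. Of the 58, 4 had an unadjusted p under 0.05, or 6.90% against 5.95% of all genes, and DESeq2 called 1, Cd14.

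Among the receptors and surface partners of Ccl5, 8 of 9 were in the table and 6 were tested. Between genotypes edgeR called 0 of the 6 in LPS and in medium. With edgeR 1, Sdc4, had an unadjusted p under 0.05 in each, against 7.12% and 13.4% of all genes, and it was called by DESeq2. Ccr1, a receptor, was at 94.3 CPM in WT LPS and 75.2 CPM in Scnn1b-Tg LPS (log2 fold change -0.36, SE 0.18). Ccr3, another receptor, had at most 13 counts in any library. Dpp4, a peptidase that trims Ccl5, was also low, with group means of 0.109 to 0.312 CPM and at most 0.555 CPM in any library. Cd44, a receptor that carries proteoglycan chains, rose with LPS in both genotypes (0.51 and 0.55, edgeR adjusted p = 0.00231 and 0.00119) and differed by -0.05 (SE 0.10) between them after LPS.

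The syndecans, proteoglycans known to bind Ccl5, rose more strongly with LPS. Sdc1 rose by 5.61 in both genotypes (edgeR adjusted p = 4.52e-06 and 3.06e-06), with a genotype difference of -0.17 (SE 0.38). Sdc4 rose by 4.39 in WT and 4.13 in Scnn1b-Tg AMs (edgeR adjusted p = 1.21e-06 and 3.46e-07), and after LPS it stood at 17.9 CPM in Scnn1b-Tg pools and 8.33 CPM in WT pools. The Scnn1b-Tg LPS libraries of Sdc4 (16.4 to 21.0 CPM) did not overlap those of WT (7.35 to 9.74 CPM), but its log2 fold change of 1.00 (SE 0.21) did not pass over all genes (edgeR adjusted p = 0.148, the lowest of the 58).

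Among 17 tested genes of LPS sensing and the interferon relay, 11 rose and 2 fell with LPS in WT AMs, and 11 rose and 1 fell in Scnn1b-Tg AMs, where 31.8% and 38.1% of all genes were called. Between genotypes edgeR called Cd14 alone, in medium, where DESeq2 also called Traf3 (fitted by edgeR at -0.71, SE 0.21, adjusted p = 0.177) and Irf7 (1.10, SE 0.26, edgeR adjusted p = 0.105). Cd14 rose from its lower start in Scnn1b-Tg AMs to a like level, 598 ± 83.3 CPM against 575 ± 12.5 CPM in WT. Its LPS response differed by 0.76 (SE 0.13, edgeR adjusted p = 0.271). Tlr4, the LPS receptor, varied widely in WT LPS, from 3.57 to 34.8 CPM, against 32.4 to 43.6 CPM in Scnn1b-Tg LPS. Its difference of 1.52 (SE 0.51, edgeR adjusted p = 0.476) became 2.43 (edgeR adjusted p = 0.0244) without WT LPS 16.

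Jak1 and Tyk2, which carry the interferon signal, differed after LPS by 0.03 (SE 0.11) and 0.13 (SE 0.14). Exons of these and of Dpp4, Cebpb, Irf1, Irf7, Gbp2, Cxcl10, Cxcl16 and Ntng2 overlap another gene, so their counts, made without strand, are less certain than those of Ccl5. Ifnb1, the interferon that would start that signal, did not pass the filter on low counts.

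Of the 13 transcription factors listed for the Ccl5 promoter, 7 rose and 1 fell with LPS in WT AMs, and 7 rose and 2 fell in Scnn1b-Tg AMs, beside the 31.8% and 38.1% of all genes called. Among the most abundant were Cebpb, Rela and Irf8, with log2 genotype differences after LPS of 0.01 (SE 0.09), 0.10 (SE 0.11) and 0.05 (SE 0.11). Irf1, chosen here after its values were seen, averaged 115 ± 13.4 CPM in Scnn1b-Tg LPS and 85.5 ± 10.8 CPM in WT LPS, a difference of 0.39 (SE 0.10, edgeR adjusted p = 0.261) that only DESeq2 called (adjusted p = 0.0495). For Ccl5 the same difference was 2.06.

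Of the 5 pathway lists, the interferon-induced genes had the largest share of values on one side. After LPS 12 of 13 tested genes were above 0 between genotypes, with a median of 0.42. Even so, edgeR called 0, against 0.051% of all genes, and DESeq2 called 0. At an unadjusted p under 0.05 with edgeR there was 1, against 7.12% of all genes. In medium 12 of 13 fitted values were also above 0, with a median of 0.73. That of Iigp1 carries no difference, since it had 0 counts in every medium library. In medium edgeR called 0, against 0.335% of all genes, with 5 at an unadjusted p under 0.05, against 13.4% of all genes. DESeq2 called 2, Mx1 and Gbp2. The most abundant was Gbp2, a guanylate-binding protein, at 622 ± 129 CPM in Scnn1b-Tg LPS against 373 ± 51.5 CPM in WT LPS (0.64, SE 0.19, edgeR adjusted p = 0.331). Ifit1, Isg15 and Ifit3, which act against viruses, followed at 0.74 (SE 0.41), 0.39 (SE 0.23) and 0.38 (SE 0.45). The differences of these and of Gbp2 were larger in batch 1 than in batch 2. On means of log2(CPM + 0.5) after LPS, Gbp2, Ifit1, Isg15 and Ifit3 differed by 0.83, 1.23, 0.53 and 0.79 in batch 1. In batch 2 these values were 0.51, 0.41, 0.28 and 0.15. In medium they were 0.96, 1.71, 1.26 and 2.62 in batch 1, and 0.30, -0.18, 0.11 and 0.29 in batch 2. With LPS 12 of the 13 rose in each genotype, where 31.8% of all genes were called in WT and 38.1% in Scnn1b-Tg AMs. The median rise of the 13 was 3.50 in WT and 2.64 in Scnn1b-Tg AMs. It was 3.24 and 2.47 with Iigp1, which was at 0 in medium, set at its lower bound. The median difference of the responses was -0.33 with or without Iigp1, where that of Ccl5 was 1.35.

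Of the 20 other chemokines listed, 17 were in the table and 14 were tested. With LPS 8 rose and 1 fell in each genotype, and edgeR called 0 between genotypes in LPS, in medium or in the interaction, with 2, 3 and 2 at an unadjusted p under 0.05. DESeq2 called 0 in LPS, 2 in medium (Cxcl2 and Cxcl16) and 0 in the interaction. The median genotype difference after LPS was 0.31, with 10 of 14 above 0. Ccl3 and Ccl4, which draw monocytes and T cells, differed by 0.56 (SE 0.18, edgeR adjusted p = 0.464) and 0.27 (SE 0.25, edgeR adjusted p = 0.973). Cxcl10, a chemokine induced by interferon, differed by 0.45 (SE 0.22, edgeR adjusted p = 0.738) and Cxcl16, which is made as a membrane protein, by 0.30 (SE 0.10, edgeR adjusted p = 0.489).

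The neutrophil chemokines Cxcl1, Cxcl2 and Cxcl3, close copies among which reads may be shared, differed by 0.08 (SE 0.25), -0.16 (SE 0.24) and -0.09 (SE 0.36). The remaining tested chemokines differed by 0.71 (SE 0.38) for Ccl6, 0.32 (SE 0.22) for Ccl9 and -0.01 (SE 0.39) for Ccl22. Ccl2, Ccl7, Ccl17 and Cxcl9 were low, with values of 0.77 (SE 0.65), -1.10 (SE 0.90), 1.26 (SE 0.63) and 0.42 (SE 0.72).

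By length-scaled level, Ccl5 rose in the order of the 15 tested chemokines with LPS. It was in place 9 in WT medium, between Cxcl1 (5.08 ± 0.754 TPM) and Ccl4 (3.68 ± 1.14 TPM), and the libraries of both overlapped its own range of 3.82 to 5.85 TPM. In Scnn1b-Tg medium it was in place 6, between Ccl22 (9.98 ± 2.84 TPM) and Cxcl3 (8.21 ± 5.70 TPM), again overlapping both. In WT LPS it was in place 6 with 115 to 151 TPM, below Cxcl16 (181 to 201 TPM) without overlap and above Ccl4 (99.4 to 125 TPM) with overlap. In Scnn1b-Tg LPS it was in place 5 with 532 to 685 TPM, overlapping neither Cxcl1 above it (1011 to 2032 TPM) nor Cxcl16 below it (214 to 251 TPM).

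**Figure D3:**
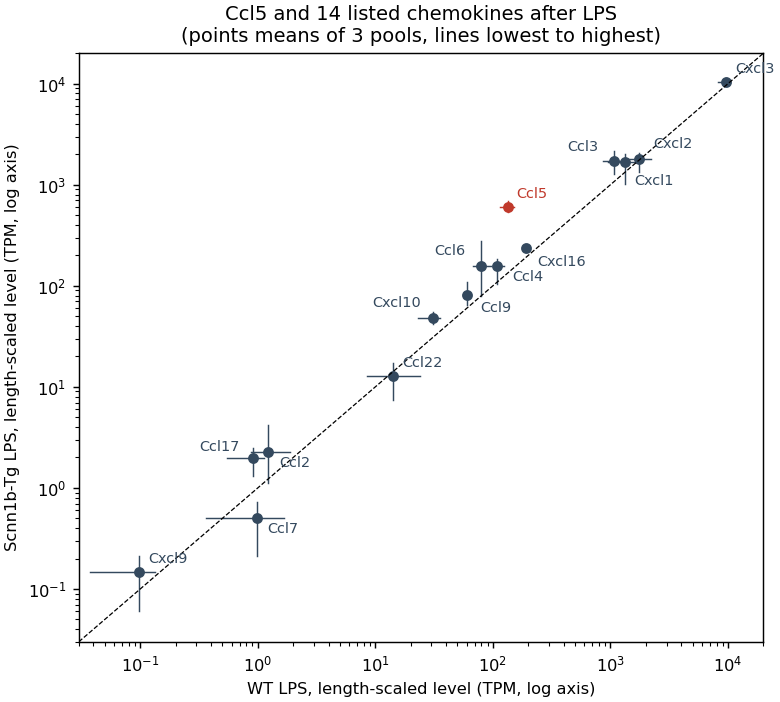
Length-scaled level (TPM, log axes) of Ccl5 and the 14 other tested chemokines in WT LPS (horizontal) and Scnn1b-Tg LPS (vertical). Points are means of 3 pools, lines run from the lowest to the highest pool, and the dashed line marks equal levels. Ccl5, at 133 and 600 TPM, lies farther above the dashed line than the other chemokines.

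Ccl5 sits at one end of a cluster of CC chemokine genes, so the genes within 300 kb were compared with it. The annotation lists 34 genes there, 18 of them protein coding, and 13 were tested. After LPS edgeR and DESeq2 called 0 of the 13 between genotypes, against 0.051% of all genes by edgeR. With edgeR 2 had an unadjusted p under 0.05, against 7.12% of all genes, and their median difference was 0.27. In medium 1 was called, against 0.335% of all genes. It was Wfdc17, a whey acidic protein family gene that lies 173473 bases from Ccl5, at 18.2 CPM in Scnn1b-Tg medium and 6.48 CPM in WT medium (1.52, SE 0.26, edgeR adjusted p = 0.0449). That call was lost in 14 of 20 alternative fits. After LPS Wfdc17 differed by 0.85 (SE 0.25, edgeR adjusted p = 0.331).

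The nearest tested gene on one side was Taf15, which encodes an RNA-binding protein 19035 bases away, with a genotype difference after LPS of 0.39 (SE 0.29). On the other side lay Ccl9 at 42401, Ccl6 at 57364, Ccl3 at 117326 and Ccl4 at 132066 bases. With LPS Ccl3 rose by 4.53 and Ccl4 by 5.00 in WT AMs, close to the 4.90 of Ccl5, and by 5.32 and 5.08 in Scnn1b-Tg AMs, where Ccl5 had 6.25. Ccl9 rose by 0.65 and 1.06, while Ccl6 fell by 1.26 and 1.27. Each of these LPS changes passed (edgeR adjusted p between 1.86e-08 and 0.0390). The remaining 8 neighbours, among them Taf15, Heatr6, Ap2b1 and Wfdc21, had genotype differences after LPS between -0.94 and 0.53.

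**Figure D4:**
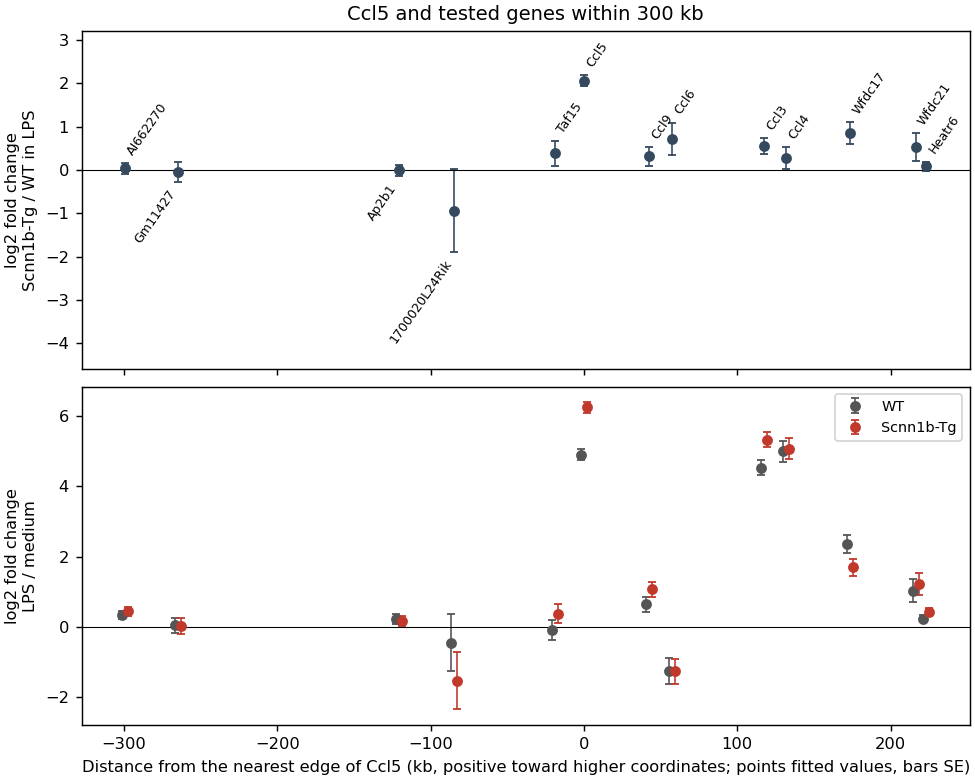
Fitted log2 fold changes (bars SE) of Ccl5 and 12 of the 13 tested genes within 300 kb, against distance from the edge of Ccl5 in kb. The upper panel gives Scnn1b-Tg over WT after LPS, where Ccl5 is at 2.06 and no neighbour exceeds 0.85. The lower panel gives LPS over medium in WT and Scnn1b-Tg AMs, where Ccl3 and Ccl4 rise about as far as Ccl5 in WT.

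The genes whose pattern over the 12 libraries was most like that of Ccl5 were found by the root mean square distance between centred log2 CPM (prior count 2) over 11821 tested protein-coding genes. They were Ntng2 (0.55), Thbs4 (0.62), H2-M2 (0.63), AA467197 (0.65) and Aoah (0.67). Like Ccl5, all 5 were low in medium and rose with LPS. Ntng2 and Thbs4 were close to or at 0 in medium and reached 3.56 ± 0.960 and 1.86 ± 0.192 CPM in Scnn1b-Tg LPS, against 1.65 ± 0.356 and 0.389 ± 0.0661 CPM in WT LPS. The Thbs4 difference of 2.24 (SE 0.30) was as large as that of Ccl5 at a far lower level. These genes were picked for their likeness to Ccl5, so a difference in its direction is part of the choice and is given with no test.

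Aoah, an enzyme that removes acyl chains from LPS, ran most closely with Ccl5 in WT AMs, with 1.05 ± 0.264 CPM in medium and 41.1 ± 5.99 CPM with LPS. In Scnn1b-Tg AMs it reached 60.7 ± 8.63 CPM with LPS, where Ccl5 reached 176 CPM (genotype difference 0.60, SE 0.15). H2-M2, a class I histocompatibility gene of a family with similar copies, went from 4.63 ± 0.867 to 337 ± 55.7 CPM with LPS in WT pools, and from 10.4 ± 3.18 to 605 ± 235 CPM in Scnn1b-Tg pools. AA467197, whose exons overlap the microRNA gene Mir147, reached 130 ± 21.7 CPM in Scnn1b-Tg LPS and 67.6 ± 14.9 CPM in WT LPS (0.76, SE 0.12). After LPS the fitted genotype differences were 0.60 for Aoah, 0.66 for H2-M2, 0.76 for AA467197, 1.13 for Ntng2 and 2.24 for Thbs4. That of Ccl5 was 2.06.

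By Pearson's r over the same libraries, over the 8770 genes that averaged 5 CPM or more, those most like Ccl5 were Hcar2 (r = 0.991), Bckdhb (0.990), AA467197 (0.988), Eva1b (0.987) and Sdc4 (0.986). These values are descriptions, since the 12 points fall into a medium and an LPS cluster, so that any gene that rises with LPS has a high r. Hcar2, a receptor for nicotinic acid and hydroxybutyrate, stood at 68.5 ± 2.91 CPM in Scnn1b-Tg LPS and at 43.1 ± 4.28 CPM in WT LPS (0.66, SE 0.12). Bckdhb, a subunit of the branched-chain ketoacid dehydrogenase, went only from 18.1 ± 0.405 to 31.5 ± 1.51 CPM with LPS in WT pools and shared the shape of the Ccl5 profile, not its size.

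Cells other than macrophages can make Ccl5, T and NK cells above all, so their markers were read beside it. Of 12 T or NK markers 10 were in the table. Cd2 was abundant in medium and fell by 2.70 with LPS on the log2 scale in WT and fell by 3.36 in Scnn1b-Tg AMs, against the direction of Ccl5, and it is given apart. The other 9 summed to 1.02 to 1.75 CPM in WT LPS and 1.69 to 2.01 CPM in Scnn1b-Tg LPS, where Ccl5 was at 33.8 to 43.1 and 144 to 204 CPM. In WT medium they summed to 0.904 to 1.74 CPM, of like size to Ccl5 at 1.08 to 1.61 CPM. In Scnn1b-Tg medium they summed to 0.392 to 0.753 CPM, where Ccl5 was at 1.78 to 3.12 CPM. Cd3d, Cd3e and Cd3g had at most 14, 23 and 8 counts in any Scnn1b-Tg LPS library. For Cd8a, Il2rb and Cd247 the highest were 8, 8 and 75 counts, and for Nkg7, Gzmb and Klrd1 they were 5, 5 and 4. The part of T and NK cells in the Ccl5 difference was not tested.

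Of the 7 tested markers of that list 3 had a positive genotype difference after LPS, with a median of -0.52. Cd2 (-0.70, SE 0.12, edgeR adjusted p = 0.0798, called by DESeq2), Il2rb (-1.55, SE 0.79, edgeR adjusted p = 0.749) and Cd8a (-1.21, SE 0.99, edgeR adjusted p = 0.952) were lower in Scnn1b-Tg LPS without overlap. Cd247, singled out with these after the values were seen, was higher without overlap. This signalling chain of T and NK cell receptors, whose exons overlap Pou2f1, had 48, 50 and 75 counts in the Scnn1b-Tg LPS libraries and 14, 8 and 20 in WT LPS (1.89, SE 0.65, edgeR adjusted p = 0.450). DESeq2 did not call it either, and its part in the Ccl5 difference was not tested. Dendritic cell markers were also higher, with 15.6 to 24.5 CPM in Scnn1b-Tg LPS against 10.4 to 11.2 CPM in WT LPS, and 5.83 to 7.99 against 3.01 to 3.82 CPM in medium. Most of this was Ccr7 and Fscn1, which activated macrophages also express. Fscn1 was called after LPS (1.56, SE 0.22, edgeR adjusted p = 0.0458) and Ccr7 in medium (1.33, SE 0.22, edgeR adjusted p = 0.0420), calls that were lost in 16 and 12 of 20 alternative fits. Without these, a choice made after their values were seen, the remaining 5 summed to 2.92 to 3.63 CPM in Scnn1b-Tg LPS against 2.16 to 3.55 CPM in WT LPS, and the part of such cells was not tested.

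Monocyte markers summed on average to 1.60 CPM in Scnn1b-Tg LPS and 1.11 CPM in WT LPS, and B cell markers to at most 1.12 CPM in any library. Neutrophil markers were higher in Scnn1b-Tg LPS, at 16.5 to 21.9 against 12.0 to 15.5 CPM. All 4 tested ones had a positive genotype difference after LPS (median 0.59). Of these edgeR and DESeq2 called 0, and 1 had an unadjusted p under 0.05 with edgeR, against 7.12% of all genes. S100a8 had 433 to 748 counts, Mmp8 140 to 545 and Csf3r 102 to 252 in the Scnn1b-Tg LPS libraries, whereas S100a9 had at most 5 in any library. Their part in the Ccl5 difference was not tested. Of the 3 genes in the table that were listed as eosinophil markers, Prg2 and Ccr3 were at 0 in medium and at or below 0.246 CPM in sum with LPS. All 3 summed to 52.6 to 72.2 CPM in WT LPS and 55.7 to 72.2 CPM in Scnn1b-Tg LPS, led by Siglece. Macrophages express Siglece, so this sum does not mark eosinophils. Epithelial markers, led by Scgb1a1, ran the other way, with 32.1 to 61.9 CPM in Scnn1b-Tg LPS and 75.7 to 110 CPM in WT LPS.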

How the data were processed

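RNA was sequenced from AMs in 12 libraries. The authors deposited gene counts, unfiltered whole numbers estimated by StringTie from reads aligned to mm10 with HISAT2 in unstranded mode (GENCODE M20, per the methods). Coverage is turned into counts at a nominal read length, and low values fell in steps of about 5 per read pair, with 55.3% at 0 or 3 modulo 5 against 40% if even. The detection floor was set at 8 counts. The kit amplifies cDNA and adds no molecular identifiers, so intervals and floors reflect counting error alone.

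Symbols, positions and transcript lengths came from GENCODE M21 (mm10), in which 20158 of 20551 IDs were found. TPM were computed from counts and the longest coding transcript, or all exons where there is none. The filterByExpr rule, with a count of at least 10 and a total of at least 15, left 13729 genes. edgeR 4.0.16 in R 4.3.3 was run in quasi-likelihood mode on all 12 libraries with TMM scaling, with the group and the batch as terms. Tests were two-sided with Benjamini-Hochberg adjustment over all genes tested, and SE was derived from the F statistic. The step was checked on simulated counts. P-values measure the spread between libraries of a group after the batch term. The main fit holds no pool term, so it does not use the pairing of medium and LPS libraries.

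Named genes were Ccl5, list members called between genotypes or in the interaction and otherwise up to 4 of the highest mean CPM, all tested receptors and chemokines, genes within 300 kb, and the 5 nearest by distance and by r. The gene, the lists and the rule were chosen with earlier results of these data known. Same-pool medium and LPS libraries, which share animals per the labels, deviated together (r = 0.137 to 0.335 in 6 of 6 pools), so the pool pairs them. Alternatives were other scaling, no filter, DESeq2 1.42.0, no batch term, only the compared libraries, counts divided by 5, the pool as a block (edgeR, or voom in limma 3.58.1), each library left out, and a prior count of 0.5. Marker sums without Cd2, without Ccr7 and Fscn1 and without Siglece were added after the data were seen. A few listed genes and 1 sequence are not reported here.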

Additional observations from a re-analysis of the deposited data

How the results depend on the processing

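The fitted log2 fold change of Ccl5 kept its direction in every alternative fit, but some shifts were about as large as its SE. The main fit gave 0.71 (SE 0.17) in medium and 1.35 (SE 0.21) for the interaction. Settings other than leaving out a library gave 2.04 to 2.20 between genotypes after LPS, 0.67 to 0.84 in medium, 4.82 to 4.93 and 6.15 to 6.27 for LPS in WT and Scnn1b-Tg AMs, and 1.33 to 1.38 for the interaction. Leaving out each library in turn gave 1.96 to 2.12, 0.52 to 0.83, 4.83 to 4.98, 6.12 to 6.46 and 1.21 to 1.56. With the pool as a replicate block in edgeR, Ccl5 was 4.89 (SE 0.12) and 6.26 (SE 0.11) with LPS in WT and Scnn1b-Tg AMs, with 1.37 (SE 0.19) for the interaction. With the pool as a random block in voom the genotype differences were 2.07 after LPS and 0.69 in medium. This random block ended the medium calls of Ccr7 (adjusted p = 0.0610) and Wfdc17 (adjusted p = 0.0593). It did not end the call of Cd14 in medium or that of Fscn1 between genotypes after LPS. The LPS calls of 11 named genes (Siglecf, Marco, Car4, Cd2, Cd44, Sdc1, Sdc4, Ccl3, Ccl4, Ccl6 and Ccl9) held with either block in both genotypes.

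Among the 58 pathway genes, DESeq2 called 2 between genotypes after LPS, 8 in medium and 1 in the interaction, where edgeR called 0, 1 and 0. Without a batch term 0 were called in medium. The cause was not tested. Leaving out a library gave 0 to 1 in LPS (1 without Tg medium 18, Sdc4, and 1 without WT LPS 16, Tlr4) and 0 to 1 in medium (0 without WT medium 18, Tg medium 17 or Tg medium 19). Of 20 alternatives each, Cd14 lost its call in 4, Ccr7 in 12, Wfdc17 in 14 and Fscn1 in 16. With a prior count of 0.5, 4 of the 5 nearest genes by distance and 5 of 5 by r were shared. The gene lost was Ntng2, the nearest in the main setting, and Kcnf1 entered. Ntng2 was close to or at 0 in medium, where its log2 CPM is set mostly by the prior count. The same holds for Thbs4, which stayed among the 5. Depth limits Ccl5 in medium, where a library held 11 to 33 read pairs of it.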
